A study of Homo sapiens with 24 samples.

Results

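Albumin and 9 other secreted carrier and binding proteins of plasma were followed in 2 human hepatocellular carcinoma (HCC) cell lines, PLC/PRF/5 and SNU-449, each an established line. The genes were ALB, TTR, TF, RBP4, AMBP, AHSG, FETUB, GC, VTN and A1BG, chosen by name and matched to the arrays through the RefSeq accession of each probe. All 10 were on the array, each with 1 probe, among 31200 gene names. A gene was tested if at least 1 group in the fit had its probe well above background on all 3 of its arrays, which held for 8 of the 10 in PLC/PRF/5 and in the fit of both lines, and for 5 of the 10 in SNU-449.

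The 24 one-colour Agilent microarrays covered 8 groups of 3 independent cultures, 4 groups per line. Untreated control cells were compared with cells given TGFβ1 at 1 ng/mL, galunisertib (LY2157299) at 10 µM, or both agents, for 16 h, and every group, controls included, had first been kept overnight without serum. TGFβ1 is a cytokine that signals through a pair of receptor kinases and SMAD transcription factors, and galunisertib, a small-molecule drug, blocks the type I receptor kinase. A level here is the log2 of the background-subtracted signal over the 75th percentile of its array, so 0 is the 75th percentile and each unit is a doubling. Values under a floor of -4.13 were set to it. Levels of different genes come from different probes and are not set against each other.

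Hepatocytes make most of the carrier proteins of plasma. Albumin (ALB) carries fatty acids, bilirubin and many drugs, transferrin (TF) carries iron, and vitamin D-binding protein (GC) carries vitamin D metabolites. Transthyretin (TTR) carries thyroxine and circulates in a complex with retinol-binding protein (RBP4), the carrier of vitamin A. AMBP encodes a precursor that is cut into alpha-1-microglobulin and bikunin, a protease inhibitor. The fetuins AHSG and FETUB belong to the cystatin superfamily, and AHSG binds calcium phosphate. Vitronectin (VTN) binds integrins in the extracellular matrix, while A1BG is a plasma glycoprotein of the immunoglobulin superfamily.

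In the RefSeq annotation ALB lies on chromosome 4 next to AFP, and AHSG and FETUB are neighbours on chromosome 3. A promoter was found for 8 of the 10 genes in the RefSeq promoter table (GRCh38.p14), and not for TTR and GC. Shown here are the 150 bases before the start of the 4 carrier genes that have 1 start in that table and passed a treatment comparison below, each 5′ to 3′ on the strand of its gene. Capitals mark CCAAT, the CCAAT box, searched on both strands, so that on the opposite strand it reads ATTGG.
ALB, plus strand, chr4:73404137-73404286: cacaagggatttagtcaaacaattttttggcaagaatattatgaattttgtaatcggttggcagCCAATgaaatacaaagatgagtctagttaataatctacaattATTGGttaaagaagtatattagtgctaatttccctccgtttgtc
AMBP, minus strand, chr9:114078301-114078450: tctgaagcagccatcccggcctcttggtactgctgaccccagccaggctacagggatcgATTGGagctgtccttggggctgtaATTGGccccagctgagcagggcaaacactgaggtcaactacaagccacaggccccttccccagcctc
AHSG, plus strand, chr3:186612910-186613059: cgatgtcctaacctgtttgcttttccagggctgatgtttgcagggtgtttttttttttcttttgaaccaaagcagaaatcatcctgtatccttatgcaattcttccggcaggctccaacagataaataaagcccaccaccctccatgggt
VTN, minus strand, chr17:28370308-28370457: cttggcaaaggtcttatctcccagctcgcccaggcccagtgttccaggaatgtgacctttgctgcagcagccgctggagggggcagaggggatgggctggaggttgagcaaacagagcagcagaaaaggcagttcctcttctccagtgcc
Within 250 bases before the most upstream start, CCAAT was found in 3 of the 8 carrier promoters, those of ALB, AMBP and VTN, and in 32.0% of all 35116 promoters of the table. TATAAA was found in 1 of the 8, that of FETUB, and in 10.72% of all. Before further starts of the same genes, TATAAA was also found for RBP4, and CCAAT for RBP4, TF and FETUB. The letters TGTTTAC, the core of the FOXA motif, and CAGACA, a SMAD box, were found in 0 of the 8, and in 2.98% and 13.6% of all promoters. The shares over all promoters count every start in the table, while each carrier gene counts by 1 start. A match is a run of letters and not a measured binding site.

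The 3 slides each held 8 arrays, 1 of every group, so the replicate number was also the slide, and all arrays were scanned on 1 day. A group always had the same place on a slide, and the groups given TGFβ1 filled 1 of the rows, so that place and treatment cannot be told apart. The 75th percentile lay between 145 and 262 intensity units, and between 43.8% and 51.4% of the probes of an array were well above background. Of 10 hepatocyte markers, 8 were well above background on all PLC/PRF/5 control arrays (TAT and CYP2E1 were not) and 4 on all SNU-449 control arrays, where APOB, APOC3, FGA and HNF4A were also missing. The summed level of these markers was 486 to 746 times the 75th percentile in PLC/PRF/5 control cells and 5.75 to 7.93 times in SNU-449 control cells. The T cell marker CD3E and the endothelial markers PECAM1, KDR and TEK never reached that mark on all arrays of a group. The other 2 of 5 endothelial markers, CDH5 and VWF, reached it on all control arrays of both lines. Of 4 leukocyte markers on the array, 2 reached it on all PLC/PRF/5 control arrays and 1 on all SNU-449 control arrays.

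The first question was how the lines differ before treatment. The 8 carrier genes tested all had the higher level in untreated PLC/PRF/5 cells, while FETUB and GC were near or below detection in both lines. In untreated SNU-449 cells the mean level was 0.66 for AMBP and 0.045 for RBP4. It was -2.63 for VTN, -3.08 for TTR and -3.55 for A1BG. Of the 10 genes, 5 were well above background on the control arrays of both lines, and all 5 were higher in PLC/PRF/5 (limma, adjusted p under 0.05), where 68.5% of all 17900 genes tested differed between the lines, 33.9% higher in PLC/PRF/5 and 34.6% lower. Their log2 differences ran from 6.31 to 7.93, against a median of 0.063 over all genes. Another 3, TF, AHSG and ALB, were detected in PLC/PRF/5 control cells alone and entered the fit through that line, which fixed their direction.

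RBP4 was at 8.06, 7.93 and 7.92 in the 3 PLC/PRF/5 control cultures and at -0.0028, -0.020 and 0.16 in those of SNU-449. The difference was 7.93 ± 0.097 on the log2 scale (SE, n = 3 arrays per group, limma adjusted p = 6.81e-23), a 243-fold higher level in PLC/PRF/5. TTR, its partner in plasma, was at 4.38, 4.42 and 4.48 in PLC/PRF/5 and at -2.87, -3.29 and -3.07 in SNU-449, a 181-fold difference. In SNU-449 all 12 arrays detected TTR above background, yet within 2 log2 units of the floor.

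AMBP was at 7.68, 7.44 and 7.63 in PLC/PRF/5 and at 0.53, 0.73 and 0.73 in SNU-449, which is 121-fold. In untreated SNU-449 cells both RBP4 and AMBP were thus within 1 log2 unit of the 75th percentile. VTN differed 163-fold, with 4.90, 4.66 and 4.59 in PLC/PRF/5 against -2.88, -2.43 and -2.58 in SNU-449. A1BG differed 79.1-fold, with 2.74 to 2.76 in PLC/PRF/5 against -3.66 to -3.36 in SNU-449.

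The probes of the other 3 genes tested did not rise well above background in SNU-449 control cells, so that only a lower bound can be given. TF, at 5.52, 5.38 and 5.49 in PLC/PRF/5, was at least 771-fold higher than the weakest signal counted as detected in SNU-449. AHSG was at 2.90, 2.75 and 2.98 in PLC/PRF/5 and at least 129-fold higher. ALB, the best-known product of hepatocytes, was at 0.60, 0.34 and 0.52 in PLC/PRF/5 and at least 22.7-fold higher.

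The remaining pair was near or below detection in both lines. FETUB, the neighbour of AHSG, was well above background on 1 of 3 PLC/PRF/5 control arrays, on 2 of 3 with TGFβ1, on 0 of 3 with galunisertib and on 1 of 3 with both, never above a level of -3.91. In SNU-449 no array had a FETUB signal well above background. GC stayed below that mark on all 24 arrays. Neither gene was tested.

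**Figure D1:**
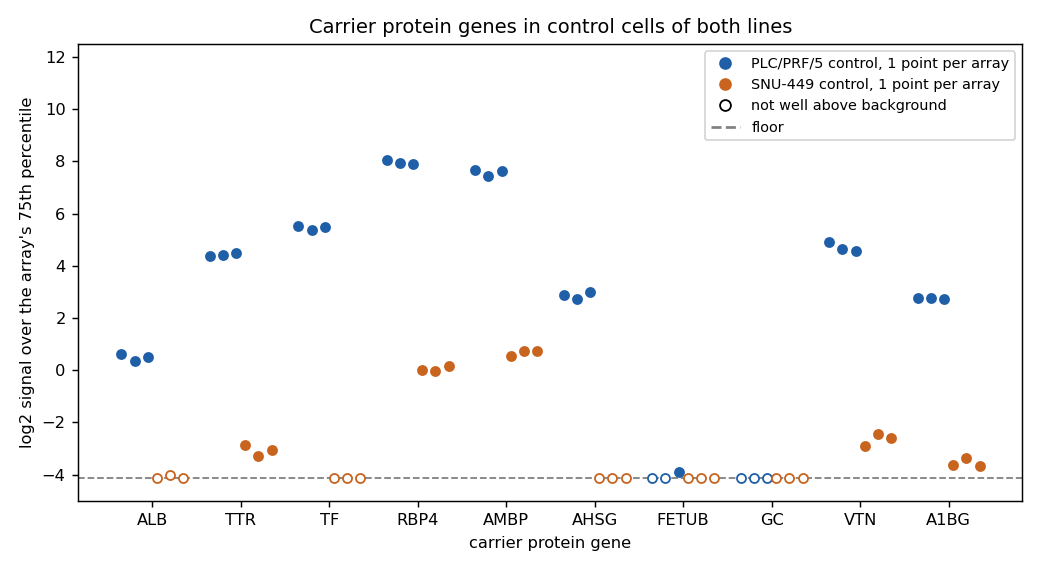
Level of the 10 carrier protein genes in untreated cells, as log2 of the signal over the 75th percentile of the array (vertical axis), with 1 point per array for PLC/PRF/5 (blue) and SNU-449 (orange). Open points were not well above background and the dashed line is the floor at -4.13. The blue points of 8 genes lie above the orange ones, while FETUB and GC lie at or near the floor in both lines.

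Of 16 other secreted liver proteins listed for context, 5 were well above background in SNU-449 control cells, and these were higher in PLC/PRF/5, by 11.78 for SERPINA1, 5.15 for AFP, 5.11 for SERPINA6, 4.11 for CP and 3.41 for ORM1 on the log2 scale. The other 8 that were tested entered through PLC/PRF/5, which fixed their direction. Of the 4 inter-alpha-trypsin inhibitor heavy chains (ITIH1, ITIH2, ITIH3, ITIH4), only ITIH4 was detected in SNU-449 control cells, and it was higher in PLC/PRF/5 (1.07). Of 12 liver-enriched transcription factors, 7 were detected in control cells of both lines, and all but NR5A2 were higher in PLC/PRF/5. Of the receptors and binding partners of the carriers 3 of 11 tested genes were higher and 7 lower in PLC/PRF/5, where 2 of the 7 were not detected.

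The next question was what inhibition of the TGFβ receptor alone did. In PLC/PRF/5 galunisertib lowered 2 of the 8 carrier genes tested, ALB and TTR, and raised none, where 5.42% of all 16682 genes tested passed, 3.67% as higher and 1.75% as lower. The median difference over the 8 genes was -0.30, against 0.046 over all genes.

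ALB was at -0.64, -0.39 and -0.40 in the 3 galunisertib cultures, all below the 3 controls (0.34 to 0.60). The difference was -0.97 ± 0.15 (log2, SE, limma adjusted p = 0.00637). TTR was at 3.82, 3.77 and 3.62 against 4.38 to 4.48 in the controls, a difference of -0.69 ± 0.10 (limma adjusted p = 0.0055). In both genes the groups did not overlap. With each array scaled to its median in place of the 75th percentile, ALB was at -0.87 (limma adjusted p = 0.0677) and TTR at -0.59 (0.262), so neither passed.

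TF and AMBP did not pass. TF was at 5.08, 4.78 and 5.09 against 5.38 to 5.52, a difference of -0.48 ± 0.16 (limma adjusted p = 0.103). AMBP was at 6.95, 7.37 and 7.14 against 7.44 to 7.68, a difference of -0.43 ± 0.12 (limma adjusted p = 0.0612). RBP4, VTN, AHSG and A1BG had differences between -0.16 and 0.11, and their groups overlapped.

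Other liver secretory genes moved in both directions with galunisertib in PLC/PRF/5. Of the 13 other secreted liver proteins tested, 2 were lower and 1 higher. KNG1, the kininogen from which bradykinin is released, fell by 1.15, and SERPINA6, the carrier of cortisol, fell by 0.46 on the log2 scale, while LRG1 rose by 0.56. Of the 4 inter-alpha-trypsin inhibitor heavy chains, ITIH3 (-1.74) and ITIH1 (-0.95) were lower. ITIH3 was not well above background on all galunisertib arrays. It had entered through the groups without the drug, so the filter favoured a fall and its size is uncertain. Among the liver-enriched regulators ONECUT1 (-0.63) and FOXA3 (-0.53) were lower and FOXA2 (0.27) was higher, out of 10 tested.

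**Figure D2:**
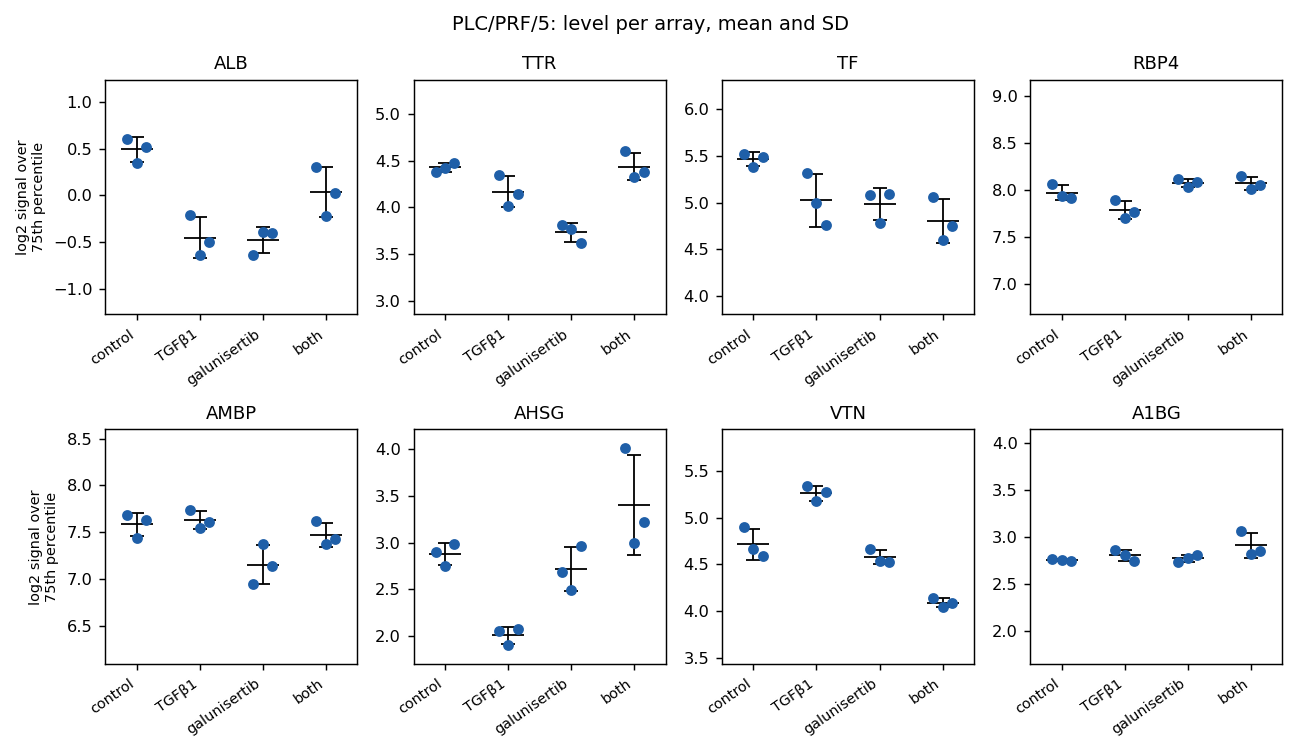
Level of the 8 tested carrier genes in PLC/PRF/5 cells under the 4 treatments, as log2 of the signal over the 75th percentile, with 1 point per array and the mean and SD of 3 arrays as bars. Each panel has its own vertical range. ALB is lower under either agent than in control cells, AHSG is lowest with TGFβ1, VTN is highest with TGFβ1 and lowest with both agents, and TTR is lowest with galunisertib.

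In SNU-449 the same treatment raised 2 of the 5 carrier genes tested, RBP4 and AMBP, and lowered none, where 7.43% of all 16099 genes tested passed, 5.35% as higher and 2.08% as lower. The median difference was 0.39 over the 5 genes and 0.088 over all genes.

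RBP4 was at 1.10, 0.75 and 1.08 with galunisertib, all above the 3 controls (-0.020 to 0.16). The difference was 0.93 ± 0.12 (log2, SE, limma adjusted p = 0.00188). AMBP was at 1.17, 0.96 and 1.03 against 0.53 to 0.73 in the controls, a difference of 0.39 ± 0.090 (limma adjusted p = 0.029). The AMBP groups did not overlap either, but the adjusted p rose above 0.05 when any of 4 of the 6 arrays was left out, namely control replicate 1 or 2 or galunisertib replicate 1 or 3, to as much as 0.0894. Scaled to the array median, AMBP did not pass (0.45, limma adjusted p = 0.342), while RBP4 did. With the slide as a block AMBP did not pass either (limma adjusted p = 0.0565). In the methods' t-test with adjustment neither passed (adjusted p = 0.0883 for RBP4 and 0.164 for AMBP), with the differences unchanged.

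VTN was at -2.25, -2.11 and -2.36 with galunisertib, against -2.88, -2.43 and -2.58 in the controls, and the difference of 0.39 ± 0.17 did not pass (limma adjusted p = 0.174). TTR (0.34) and A1BG (-0.28) did not pass, and their groups overlapped. The ALB probe was well above background in 2 of the 3 galunisertib cultures of SNU-449, at -3.02 and -3.32, and on none of the other 10 arrays of the line, so ALB was not tested there. TF and AHSG were at the floor on all 12 arrays of SNU-449.

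Of the 12 liver-enriched regulators, 7 were tested in SNU-449, and 5 were higher with galunisertib and 0 lower, with a median of 0.77. FOXA2 rose by 1.02 on the log2 scale. ONECUT1 (hepatocyte nuclear factor 6) rose by 0.97 and CEBPB by 0.77. HNF4A, a central regulator of hepatocyte genes, was not well above background on all arrays of any SNU-449 group. The 4 tested hepatocyte markers included 0 that passed, and of the 5 other secreted liver proteins tested 0 passed.

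**Figure D3:**
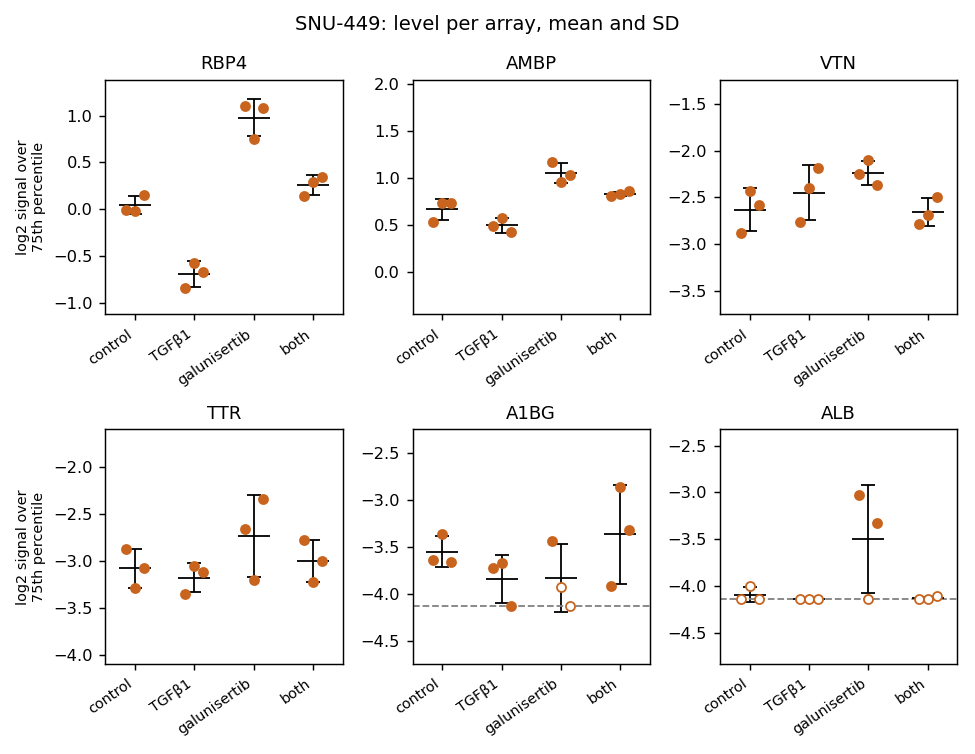
Level of 6 carrier genes in SNU-449 cells under the 4 treatments, as log2 of the signal over the 75th percentile, with 1 point per array, the mean and SD of 3 arrays as bars, open points for arrays not well above background and a dashed line at the floor. RBP4 is highest with galunisertib and lowest with TGFβ1, and ALB leaves the floor on 2 galunisertib arrays.

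The effects of galunisertib were then compared between the lines in 1 fit of all 24 arrays. Of the 4 carrier genes well above background in all 4 groups, 3 had the more positive effect in SNU-449 and none in PLC/PRF/5, where 5.87% of all 17900 genes differed, 3.43% with the more positive effect in SNU-449 and 2.44% with the more negative one. The difference between the effects was 1.03 ± 0.24 for TTR (log2, SE, limma adjusted p = 0.0138), 0.83 ± 0.14 for RBP4 (limma adjusted p = 0.00102) and 0.82 ± 0.15 for AMBP (limma adjusted p = 0.00187). With scaling to the array median these 3 differences were 0.99, 0.79 and 0.78 and did not pass (limma adjusted p = 0.260, 0.232 and 0.182). The other of the 4, VTN, did not pass. ALB entered the fit through PLC/PRF/5, and its value in SNU-449 was set to the floor in 1 galunisertib culture and 2 controls. Its fitted difference was 1.56 ± 0.27 (limma adjusted p = 0.00165), a size not measured on the SNU-449 side, and it was 1.71 (limma adjusted p = 0.0562) with the floor at 0.5 times the value used and 2.59 (limma adjusted p = 0.260) with the authors' values.

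Some regulators differed in the same sense. Of 10 tested, 5 had a more positive galunisertib effect in SNU-449 and 0 a more negative one, among them ONECUT1 (1.60), FOXA1 (0.80) and FOXA2 (0.75). The 10 include HNF4A, FOXA3 and PROX1, which were not well above background on all arrays of any SNU-449 group. For these the value is in essence the PLC/PRF/5 change with its sign turned and is no test of a difference between the lines. The count of 5 was taken over all 10, these genes included. ONECUT1, FOXA1 and FOXA2 were well above background in both lines, with and without galunisertib. ONECUT1 fell with galunisertib in PLC/PRF/5 and rose with it in SNU-449. Whether the regulators bear on the carrier genes was not tested.

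**Figure D4:**
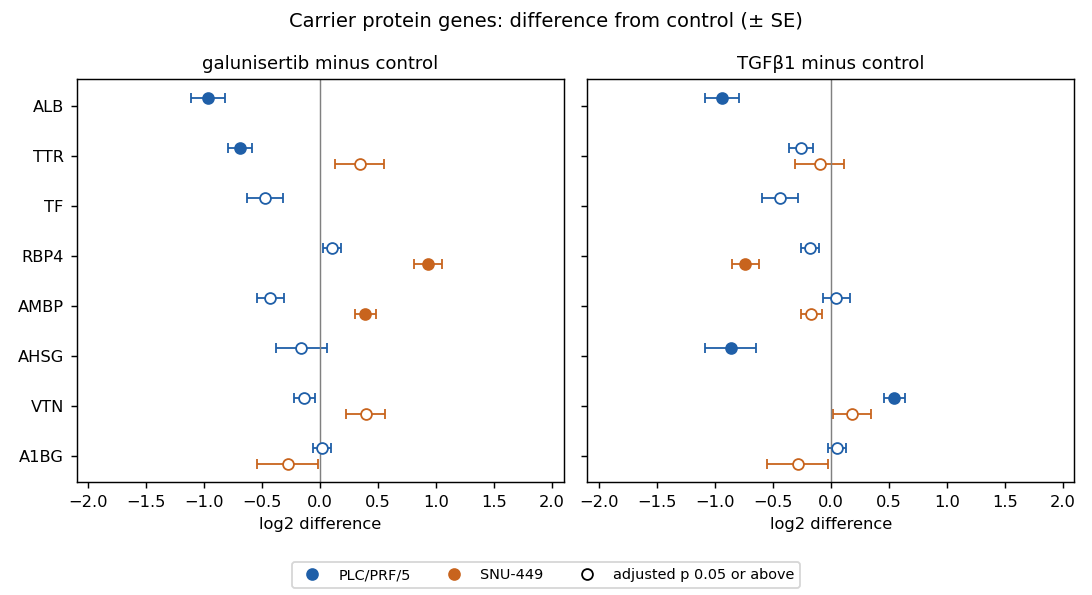
Log2 difference from control (horizontal axis, mean ± SE of the limma fit, 3 arrays per group) of 8 carrier genes with galunisertib (left) and TGFβ1 (right), in PLC/PRF/5 (blue) and SNU-449 (orange). Open points had an adjusted p of 0.05 or above, and genes not tested in SNU-449 have no orange point. RBP4 lies at 0.93 with galunisertib and at -0.74 with TGFβ1 in SNU-449, and ALB lies at -0.97 and -0.94 in PLC/PRF/5.

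Addition of TGFβ1 was the third treatment question. The controls are the same arrays as for galunisertib, so the 2 sets of differences share that error. The cytokine changed 3 of the 8 carrier genes tested in PLC/PRF/5, with ALB and AHSG lower and VTN higher, where 13.5% of all genes passed, 6.27% as higher and 7.24% as lower. The median was -0.22 over the 8 genes and -0.035 over all genes.

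ALB was at -0.21, -0.63 and -0.50 with TGFβ1, below all 3 controls, and the difference was -0.94 ± 0.15 (log2, SE, limma adjusted p = 0.00252). VTN was at 5.34, 5.18 and 5.27 against 4.59 to 4.90 in the controls, a rise of 0.55 ± 0.091 (limma adjusted p = 0.00335). Neither pair of groups overlapped. Scaled to the array median, ALB passed and VTN did not (0.57, limma adjusted p = 0.138).

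AHSG was at 2.06, 1.91 and 2.07 against 2.75 to 2.98 in the controls, a difference of -0.86 ± 0.22 (limma adjusted p = 0.0264). Within the slides it was -0.84, -0.84 and -0.91. The adjusted p rose above 0.05 when any 1 of the 6 arrays was left out, lying between 0.0528 and 0.0816, while the difference lay between -0.94 and -0.81. It did not pass with scaling to the array median either (limma adjusted p = 0.101). TF was at 5.32, 5.00 and 4.76, below all controls, and did not pass (-0.44 ± 0.16, limma adjusted p = 0.0948). It did pass with the slide as a block (limma adjusted p = 0.0459), a fit in which same-numbered cultures of these groups were treated as pairs.

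TTR (-0.26) and RBP4 (-0.18) were lower on all TGFβ1 arrays than on all control arrays, but did not pass (limma adjusted p = 0.131 and 0.151). AMBP (0.048) and A1BG (0.051) overlapped with their controls. AFP, the fetal relative of albumin and its neighbour on chromosome 4, fell by 0.49 on the log2 scale and was the only one of 13 other secreted liver proteins that passed. None of the 4 heavy chains of the inter-alpha-trypsin inhibitors passed. Of 10 regulators 1 passed, NR5A2, which rose by 0.61.

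Genes of retinoid handling, the process RBP4 serves, included 2 that rose with TGFβ1 in PLC/PRF/5 of 6 tested, RDH10 (0.54) and DHRS3 (0.50), enzymes that interconvert retinol and retinal. SLC40A1, the exporter of cellular iron, rose by 0.42, and was the only gene of 7 in iron handling that passed. ITGAV, the alpha chain of vitronectin-binding integrins, rose by 0.47, and was the only one of 9 receptors and partners.

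In SNU-449 TGFβ1 lowered 1 of the 5 carrier genes tested, RBP4, where 10.5% of all genes passed, 5.73% as higher and 4.75% as lower. RBP4 was at -0.84, -0.57 and -0.67 against -0.020 to 0.16 in the controls, a difference of -0.74 ± 0.12 (log2, SE, limma adjusted p = 0.00306), with no overlap. Scaled to the array median, it was -0.64 and did not pass (limma adjusted p = 0.128). The median was -0.17 over the 5 genes and 0.016 over all genes. AMBP was at 0.49, 0.57 and 0.42 against 0.53 to 0.73, a difference of -0.17 ± 0.090 that did not pass (limma adjusted p = 0.286). VTN (0.18), TTR (-0.097) and A1BG (-0.29) did not pass either.

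The regulators in SNU-449 were mostly lower with TGFβ1, with 4 of 7 tested lower and 1 higher. ONECUT1 fell by 1.61 and FOXA2 by 0.80 on the log2 scale, while NR5A2 rose by 0.81. TFRC, the transferrin receptor, fell by 0.58, ITGAV rose by 0.84 and ITGB5, another integrin chain that binds vitronectin, rose by 0.38. Of 5 retinoid handling genes ALDH1A1, which makes retinoic acid, was lower (-0.44).

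The TGFβ1 effects were compared between the lines in the fit of all arrays, and 1 of the 5 carriers well above background in all 4 groups differed, RBP4, where 8.62% of all genes did, 4.29% with the more positive effect in SNU-449 and 4.33% with the more negative one. The effect on RBP4 in SNU-449 minus that in PLC/PRF/5 was -0.56 ± 0.14 (log2, SE, limma adjusted p = 0.0137). AHSG (0.86 ± 0.24, limma adjusted p = 0.0272) and ALB (0.90 ± 0.27, limma adjusted p = 0.0483) also passed, but neither was well above background in SNU-449 control or TGFβ1 cells. No effect was measured there, so these values are in essence the PLC/PRF/5 change with its sign turned and are no test of a difference between the lines. The ALB call was lost when any of 11 of the 12 arrays was left out, and the AHSG call for 6 of the 12. Under array-median scaling the values were -0.49 for RBP4, 0.84 for AHSG and 0.85 for ALB, and none passed (limma adjusted p = 0.557, 0.300 and 0.346).

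**Figure D5:**
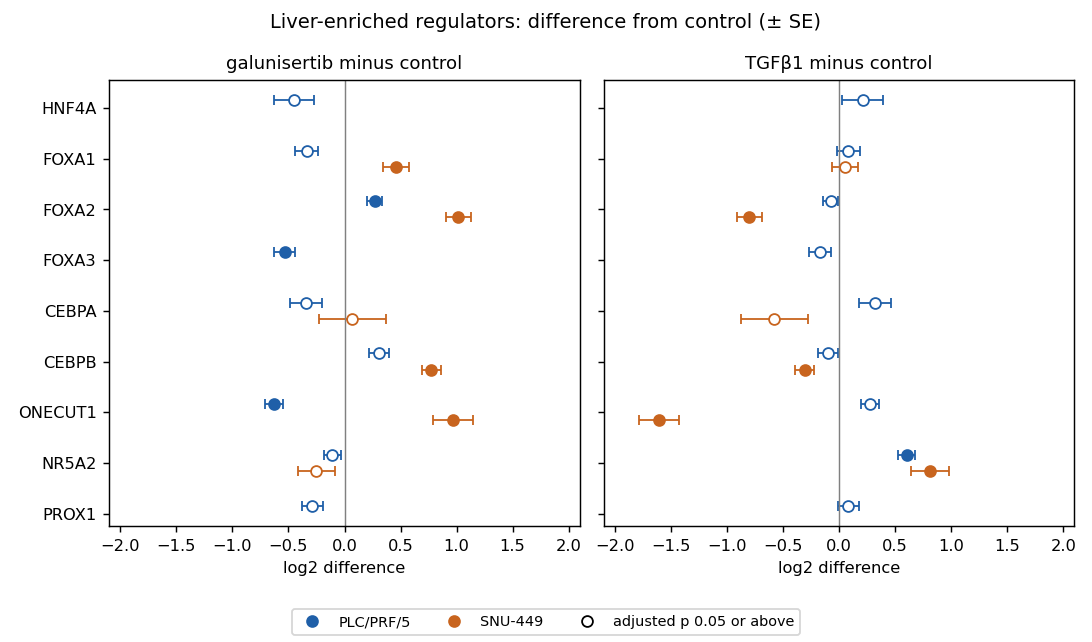
Log2 difference from control (horizontal axis, mean ± SE of the limma fit, 3 arrays per group) of 9 liver-enriched transcription factors with galunisertib (left) and TGFβ1 (right), in PLC/PRF/5 (blue) and SNU-449 (orange). Open points had an adjusted p of 0.05 or above, and genes not tested in a line have no point there. In SNU-449 FOXA2, CEBPB and ONECUT1 lie above 0 with galunisertib and below 0 with TGFβ1.

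Galunisertib was also given together with TGFβ1, and this group was compared with TGFβ1 alone. These comparisons share the TGFβ1 arrays with those above, so error in those arrays enters both with opposite signs. In PLC/PRF/5, 4 of 8 carrier genes passed, with AHSG, ALB and RBP4 higher and VTN lower, where 39.1% of all genes passed, 25.8% as higher and 13.3% as lower. The median was 0.19 over the 8 genes and 0.060 over all genes.

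AHSG was at 4.01, 2.99 and 3.22 with both agents against 1.91 to 2.07 with TGFβ1 alone, a difference of 1.39 ± 0.22 (log2, SE, limma adjusted p = 0.000746). Replicate 1 lay well above the others, and without it the difference was 1.09 (limma adjusted p = 0.000521). VTN was at 4.14, 4.04 and 4.09 against 5.18 to 5.34, a difference of -1.17 ± 0.091 (limma adjusted p = 1.08e-05). Both genes had arrays that did not overlap between the groups.

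RBP4 was at 8.15, 8.01 and 8.06 against 7.71 to 7.90, a small difference of 0.28 ± 0.077 (limma adjusted p = 0.0137). It had an adjusted p of 0.0592 without TGFβ1 replicate 2, and it was 0.11 (limma adjusted p = 0.231) when the arrays were scaled to detected probes alone. Under array-median scaling it was 0.46 (limma adjusted p = 0.0853). ALB was at 0.31, -0.22 and 0.02 against -0.63 to -0.21, with 1 array of both agents just inside the TGFβ1 range, and the difference was 0.49 ± 0.15 (limma adjusted p = 0.025). The ALB call was lost without TGFβ1 replicate 2 or 3, or replicate 1 or 3 of both agents, with adjusted p up to 0.0962. It was also lost when the arrays were scaled to detected probes (0.31, limma adjusted p = 0.104), with no filter on dim probes (limma adjusted p = 0.0712) and in the methods' t-test (adjusted p = 0.136).

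Both agents together were also compared with galunisertib alone. In PLC/PRF/5, 2 of 8 carrier genes passed, where 8.55% of all genes did, 3.59% as higher and 4.96% as lower. TTR was higher with both agents, at 4.60, 4.33 and 4.38 against 3.62 to 3.82 (0.70 ± 0.10, limma adjusted p = 0.00909). VTN was lower, at 4.04 to 4.14 against 4.53 to 4.67 (-0.49 ± 0.091, limma adjusted p = 0.017), a call that was lost without galunisertib replicate 1 (limma adjusted p = 0.0599). ALB (0.51 ± 0.15, limma adjusted p = 0.0582) and AHSG (0.69 ± 0.22, limma adjusted p = 0.075) did not pass. With scaling to the array median TTR (0.81, limma adjusted p = 0.0555) and VTN (-0.38, limma adjusted p = 0.375) did not pass.

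By the group means the order in PLC/PRF/5 was therefore different for each gene. ALB was highest in control cells, then with both agents, and lowest with TGFβ1 and with galunisertib, whose arrays overlapped each other. AHSG was lowest with TGFβ1, then with galunisertib and in control cells, which overlapped, and highest with both agents, whose lowest array (2.99) was next to the highest control (2.98). VTN was lowest with both agents, then with galunisertib and in control cells, which overlapped, and highest with TGFβ1. TTR was lowest with galunisertib, and its other groups lay between 4.02 and 4.60, with those of control cells and both agents overlapping. A1BG lay between 2.73 and 3.06 on all 12 arrays and passed no treatment comparison in either line.

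The genes around the carriers moved in both directions when galunisertib was added to TGFβ1 in PLC/PRF/5. Of 13 other secreted liver proteins, 4 were higher and 3 lower, led by CP (1.27), the ferroxidase ceruloplasmin, the heme carrier HPX (-0.83), LRG1 (0.71) and AFP (0.54). Of the 4 heavy chains, ITIH2 was higher (0.51) and ITIH3 (-1.80), ITIH1 (-0.94) and ITIH4 (-0.47) were lower. ITIH3 was not well above background on all arrays with both agents. It had entered through the groups without the drug, so the filter favoured a fall and its size is uncertain. Of 10 regulators 2 were higher and 6 lower, led by ONECUT1 (-0.94), CEBPA (-0.82), HNF4A (-0.67) and CEBPB (0.51). PLAUR (1.72), the urokinase receptor that binds vitronectin, and TFRC (0.69) were higher, and FCGRT (-0.27), the receptor that recycles albumin, was lower, of 9 tested. PLAUR was not well above background on all arrays of TGFβ1 alone, so the size of its rise is uncertain. DHRS3 (-0.85) and ALDH1A1 (-0.42) were lower among 6 retinoid genes, and SLC40A1 (-0.50) among 7 of iron handling.

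In SNU-449, galunisertib added to TGFβ1 raised 2 of the 5 carrier genes, RBP4 and AMBP, where 17.1% of all genes passed, 9.72% as higher and 7.35% as lower. RBP4 was at 0.14, 0.30 and 0.35 against -0.84 to -0.57 with TGFβ1 alone, a difference of 0.95 ± 0.12 (log2, SE, limma adjusted p = 0.000376). AMBP was at 0.81, 0.83 and 0.86 against 0.42 to 0.57, a difference of 0.34 ± 0.090 (limma adjusted p = 0.0277). With the slide as a block, in which same-numbered cultures of these groups were treated as pairs, the AMBP difference had an adjusted p of 0.0528, and leaving out any 1 of the 6 arrays gave 0.0502 to 0.105. Under array-median scaling it was 0.17 (limma adjusted p = 0.660).

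Compared with galunisertib alone, both agents gave a lower RBP4 level in SNU-449 (-0.72 ± 0.12, limma adjusted p = 0.0172), the only carrier gene of 5 that passed, where 1.90% of all genes did, 0.938% as higher and 0.963% as lower. The call was lost without replicate 1 or 2 of both agents (limma adjusted p = 0.0574 and 0.0512), and with scaling to the array median (-0.84, limma adjusted p = 0.124). By the group means RBP4 was thus lowest with TGFβ1, then in control cells and with both agents, whose arrays overlapped (-0.020 to 0.16 and 0.14 to 0.35), and highest with galunisertib. AMBP followed the same order, with narrower steps, and its TGFβ1 arrays overlapped with the controls.

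Of 7 regulators tested in SNU-449, 4 were higher and 1 lower when galunisertib was added to TGFβ1, among them ONECUT1 (2.19), FOXA2 (1.27) and NR5A2 (-1.03). Against galunisertib alone FOXA2 (-0.55) and CEBPB (-0.53) were lower. ITIH4 (0.99), CP (0.84), TFRC (0.72) and ALDH1A1 (0.57) were higher with both agents than with TGFβ1 alone. CP was not well above background on all arrays of either group and was tested through the control cells, so its value is uncertain. LRP2 (-0.78), an endocytic receptor for several carriers, and ITGAV (-0.76) were lower.

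Both lines responded to the agents in known TGFβ targets. PMEPA1 rose by 2.59 in PLC/PRF/5 and by 1.39 in SNU-449 with TGFβ1, and SMAD7 by 0.80 and 0.65 on the log2 scale. In PLC/PRF/5 PMEPA1 was not well above background on all control arrays. It entered there through the groups given TGFβ1, so the filter favoured a rise and its size is uncertain. With galunisertib alone SMAD7 fell by 0.44 in PLC/PRF/5 and by 1.90 in SNU-449. Markers of other cell types moved as well. Of 6 fibroblast markers 1 was tested in PLC/PRF/5, PDGFRB (0.68 with TGFβ1 and -0.68 with galunisertib), and 3 in SNU-449, of which COL1A1 passed (0.92 and -2.61), while DCN, LUM and THY1 were not well above background on all arrays of any group. Summed over the 6, the level in SNU-449 was 86.6 to 119 times the 75th percentile in control cells, 191 to 207 with TGFβ1 and 15.0 to 22.4 with galunisertib. The biliary marker SOX9 rose by 0.86 with galunisertib in PLC/PRF/5, and KRT7 fell by 1.51 with it in SNU-449, where the 5 biliary markers summed to 255 to 336 in control cells and 75.8 to 131 with galunisertib. Their part in the carrier results was not tested, and fewer cells with an mRNA cannot be told apart from less mRNA per cell.

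The genes most like a carrier gene in pattern were sought for the 3 carriers with the widest range of group means. Pearson's r was taken over the 12 arrays of a line, which include replicates of 4 treatments, and is given as a description. For RBP4 in SNU-449 (range 1.67) they were FYCO1, IFIT2 and AVPI1, each with r = 0.99, among 13977 genes. For AHSG in PLC/PRF/5 (range 1.39) they were SERPINA11 (r = 0.99), a secreted relative of alpha-1-antitrypsin, LSM3 (r = 0.97) and PRDX6 (r = 0.96). For VTN in PLC/PRF/5 (range 1.17) they were MYL9, PRAP1 and CERS4, each with r = 0.98, among 14855 genes.

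Calls were also counted by stricter limits, a fold above 2 and an unadjusted P below 0.001 in limma. The study's gene list between the lines carries such limits, as does its galunisertib figure, while the titles of its galunisertib lists carry a looser P. Between the untreated lines the 5 carrier genes detected in both met them, where 34.3% of all genes did. When both agents were compared with TGFβ1 in PLC/PRF/5, AHSG and VTN met them (3.09% of all genes), and for the between-line effect of galunisertib TTR did (1.54%), as did ALB, whose SNU-449 side was not measured. The largest difference of a tested carrier gene from control with galunisertib alone was -0.97 on the log2 scale, below a fold of 2, so a looser P adds no carrier gene there. No carrier gene met them in PLC/PRF/5 for galunisertib (0.342% of all genes), TGFβ1 (1.10%) or both agents against galunisertib (0.294%). None did in SNU-449 for galunisertib (1.14%), TGFβ1 (2.33%), or both agents against TGFβ1 (3.81%) or galunisertib (0.702%), nor for the between-line effect of TGFβ1 (2.29%).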

How the data were processed

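Gene expression was measured on 24 one-colour Agilent SurePrint G3 human arrays. The authors extracted the deposited intensity values with Feature Extraction 10.7.3.1, with background subtracted and no scaling between arrays. The log2 of the processed signal minus the log2 of the 75th percentile of each array was used here, after control and outlier spots (111 to 216 per array) were left out, with a floor at 5.70% of the percentile. Of 58201 probes, 31100 were named by RefSeq accession. Among several probes of 1 gene, the one with the highest mean was used, and each carrier gene had 1 probe. The deposited log2 table of the authors, with 30913 probes each centred on its median, served as an alternative (column medians -0.057 to 0.057). Its differences between arrays had a correlation of 0.999 and a slope of 1.00 with those used here, so its scale and direction were the same, and the centring removes the level of each probe.

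Treatments were compared within a line over its 12 arrays, and between lines over all 24, with limma 3.58.1 in R 4.3.3 (lmFit, eBayes), with Benjamini-Hochberg adjustment over all genes tested and a threshold of 0.05. With 3 arrays per group the number of arrays limits the precision. Alternatives were normexp (offset 50, on the median signals, since the files have no mean signal column), scaling to the array median or to detected probes, other filters on dim probes, averaged probes per gene, 0.5 times the floor, the slide as a block, a plain two-sample t-test, limits of fold above 2 and P below 0.001 as in the study's gene list between the lines, and leaving out each array. The plain t-test took the spread of each gene alone, without the random variance model named in the study's methods. The main fits did not treat same-numbered cultures as pairs, whereas the fit with the slide as a block did so for every comparison. All 3 correlations of the deviations of same-numbered cultures from the group means exceeded 0.1 for TGFβ1 against control in both lines (0.17 to 0.30 in PLC/PRF/5, 0.13 to 0.22 in SNU-449). They also did for both agents against TGFβ1 in SNU-449 (0.10 to 0.27). Some genes of the context lists are not reported here by name, though they count in the totals. Named genes were all members, up to 4 genes per context list by size of difference, and the 3 genes most like a carrier in pattern. The members and lists were chosen with earlier results of these data known. The scripts were tested on simulated data.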

Additional observations from a re-analysis of the deposited data

Results flagged for a closer look

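By the interaction test in limma over all 24 arrays, the effect of galunisertib in SNU-449 minus that in PLC/PRF/5 passed for TTR (1.03), RBP4 (0.83) and AMBP (0.82), and that of TGFβ1 for RBP4 (-0.56), genes well above background in all groups compared. Values also passed for ALB with galunisertib (1.56) and TGFβ1 (0.90) and for AHSG with TGFβ1 (0.86). AHSG was at the floor on all SNU-449 arrays and ALB was not detected in SNU-449 control or TGFβ1 cells, so these 3 values are no test of a difference between the lines.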

How the results depend on the processing

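Counts of carrier genes that passed kept within 1.5 times in all 11 comparisons with normexp, scaling to detected probes and the mean of probes. With scaling to the array median they fell to 0 for galunisertib against control (from 2) and for both agents against galunisertib (from 2) in PLC/PRF/5, to 1 for TGFβ1 (from 3), and in SNU-449 to 1 for galunisertib (from 2), 0 for TGFβ1 (from 1), 1 for both agents against TGFβ1 (from 2) and 0 against galunisertib (from 1). The between-line counts, which include ALB and AHSG although neither was measured in SNU-449 control cells, fell to 1 for galunisertib (from 4) and 0 for TGFβ1 (from 3). The plain t-test with adjustment gave 1 and 0 in PLC/PRF/5 for galunisertib against control and both agents against galunisertib, and 0 for each in SNU-449. In limma, 4974 and 2732 of all genes had an unadjusted p under 0.05 for both agents against galunisertib. The slide as a replicate block gave 1 in SNU-449 for galunisertib and for both agents against TGFβ1, and changed no other count by over 1.5 times. The limits of fold above 2 and P below 0.001 left 8 genes between untreated lines, 2 for both agents against TGFβ1 in PLC/PRF/5, 2 for the between-line galunisertib effect and 0 elsewhere. The 8 include TF, AHSG and ALB, and the 2 for the between-line effect include ALB, all 3 genes undetected in SNU-449 control cells. Only probes detected on all arrays gave 4 between untreated lines (from 8) and 1 for the between-line TGFβ1 effect, which was also 1 with no filter, 0.5 times the floor and the authors' values. ALB reversed there with the authors' values (-0.26, limma adjusted p = 0.951). The cause was not tested.

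Leaving out 1 array gave 8 to 8 genes between untreated lines, in PLC/PRF/5 2 to 3 for galunisertib, 2 to 3 for TGFβ1, 2 to 5 for both agents against TGFβ1 and 1 to 4 against galunisertib, and in SNU-449 1 to 2, 1 to 1, 1 to 1 and 0 to 1. It gave 4 to 4 for the between-line galunisertib effect and 1 to 4 for that of TGFβ1. The 8 between untreated lines include TF, AHSG and ALB, which entered through PLC/PRF/5, so their direction was fixed. The between-line galunisertib counts include ALB, and some of those for TGFβ1 include ALB or AHSG, neither measured in SNU-449 control cells. Over all genes the counts ranged from 8969 to 12569 between untreated lines, and in PLC/PRF/5 from 88 to 985, 484 to 2433, 3953 to 6518 and 0 to 1868. In SNU-449 they ranged from 87 to 1575, 705 to 2165, 1324 to 3261 and 0 to 589, and between lines from 199 to 1334 and 435 to 1705. Scaling to detected probes moved the share of higher calls from 66.0% to 39.6% for both agents against TGFβ1 in PLC/PRF/5 and from 67.7% to 41.2% for galunisertib, and the array median moved it from 49.5% to 33.0% between untreated lines, with a shift of -0.34 in the median of all genes.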
